A study of Mus musculus with 6 samples.

Results

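Delta cells are the somatostatin-producing endocrine cells of the pancreatic islet. The genes described here are 4 genes that mark them in mouse islets (Hhex, Rbp4, Ghsr and Lepr) and 4 genes of somatostatin receptors (Sstr1, Sstr2, Sstr3 and Sstr5). They were taken by name, as the probe sets annotated with that gene symbol alone. All 8 were found, each on 1 probe set, among the 22180 genes measured.

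Delta cells restrain their neighbours by local release of somatostatin. The peptide acts on receptors coupled to inhibitory G proteins, which lower cyclic AMP, open inward-rectifier potassium channels and reduce insulin and glucagon secretion. Mature β cells co-release urocortin 3, which acts through the receptor gene Crhr2 on delta cells in mice and raises somatostatin output. Delta cells also respond to ghrelin.

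RNA came from islets of 5-week-old mice on the C57BL/6J background, all labelled female, and was hybridised to Affymetrix arrays, 6 in all. The Sel1L-deficient mice (3 arrays) carried floxed Sel1L alleles and a Cre recombinase gene at the Ins1 locus, which is active in β cells, so the deletion was not directed at delta cells. The mice labelled wildtype (3 arrays) were Sel1L f/f littermates, so both genotypes carried the floxed alleles; they are described as controls without naming Cre, and effects of Cre and of Sel1L loss cannot be told apart. Sel1L is an adaptor of the ubiquitin ligase complex that clears misfolded proteins from the endoplasmic reticulum. Islets were picked by hand and recovered overnight before extraction. The labels do not say how many animals an array represents, so a p-value reflects how far these samples scatter, which may be technical.

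Values are log2 RMA summaries, with array medians of 3.08 to 3.16 over all probe sets. No detection calls were used here, and a value below these medians was not separated from background. Differences are Sel1L-deficient minus wildtype on the log2 scale, tested with limma, with Benjamini-Hochberg adjustment over all 22180 genes and a threshold of 0.05. Sel1l itself read 7.73, 7.65 and 7.68 on the Sel1L-deficient arrays, against 8.46, 8.56 and 8.76 on the wildtype arrays (limma adjusted p = 0.0312), so each array followed its label. With an array left out, the adjusted p was 0.0829 to 0.14 and the difference -0.97 to -0.82. Whether its probes lie in the deleted exons was not analysed here. Replicate 3 of each genotype lacked the high Xist signal of the other 4 arrays (3.08 Sel1L-deficient and 2.93 wildtype), against the label female.

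No rise or fall of the 8 genes was called in Sel1L-deficient islets. The count past the threshold was 0 of 8, where 0.243% of all genes passed (limma), 0.0902% upward and 0.153% downward. At an unadjusted p under 0.05 the count was 1 of 8, against 9.48% of all genes. The values of the genotypes did not overlap for 1 of 8, against 15.1% of all genes. Both shares were near the background. The median difference of the 8 was 0.12, with 6 higher and 2 lower, beside a median of 0.00 over all genes. A p that misses the threshold does not show equal levels, so each gene is given with the interval of its difference.

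**Figure D1:**
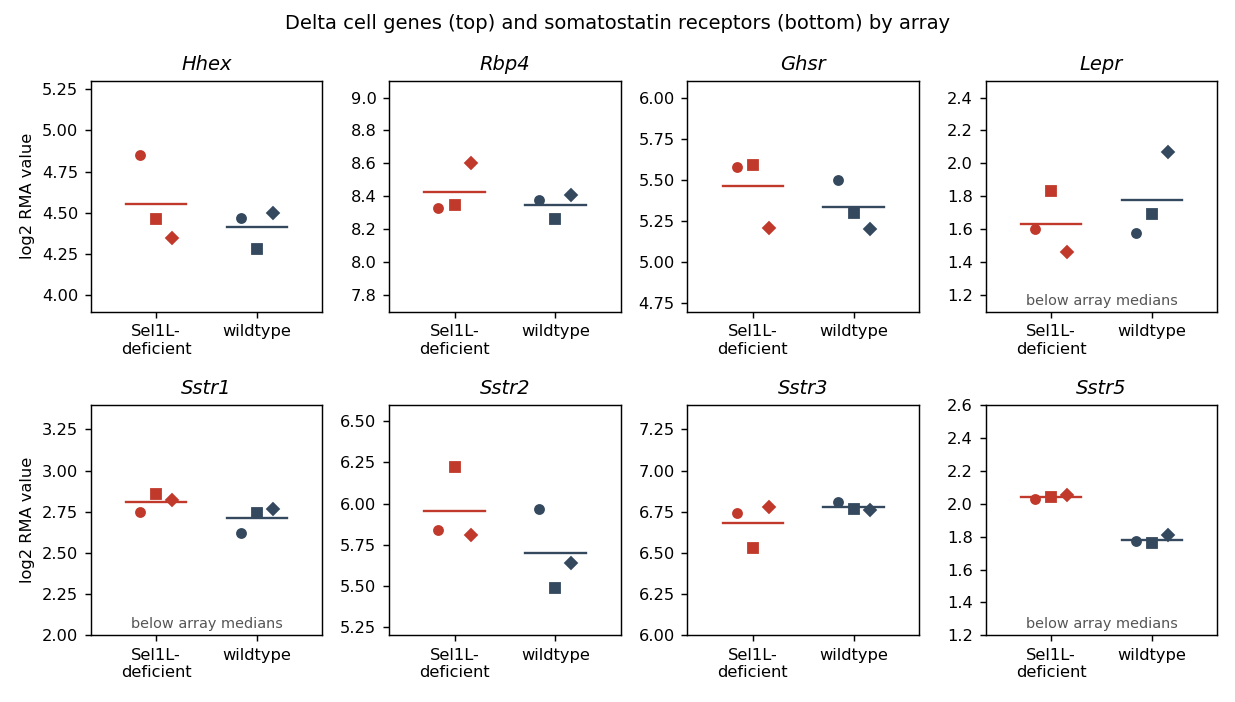
Log2 RMA value (vertical axis, each panel spanning 1.4 log2 units around its own centre) of each gene on the 3 Sel1L-deficient and 3 wildtype arrays. Circles, squares and diamonds are replicates 1, 2 and 3, and lines are group means. The genotypes overlap in every panel except Sstr5, whose 6 values lie below the array medians.

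Hhex encodes the homeobox transcription factor that maintains delta cell identity in mice. It read 4.85, 4.46 and 4.35 in Sel1L-deficient islets, against 4.47, 4.28 and 4.50 in wildtype islets. Replicate 1 of the Sel1L-deficient arrays was the highest of the 6 and the other 2 lay within the wildtype range. The difference was 0.14 ± 0.147 (SE, n = 3 each; limma adjusted p = 0.84), with a 95% interval of -0.20 to 0.47. Without Sel1L-deficient replicate 1 it was -0.01. Hhex is also made in endothelial cells, whose 14 markers were all higher in Sel1L-deficient islets, against 50.1% of all genes. Of these markers 0 passed the threshold (limma), and 7 had an unadjusted p under 0.05, against 9.48% of all genes. The summed linear level of those markers ranged from 1888 to 2154 on the Sel1L-deficient arrays and from 1293 to 1703 on the wildtype arrays. Its part in the Hhex values was not tested.

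Rbp4, the plasma retinol carrier, is a marker of delta cells among islet cells. It read 8.33, 8.35 and 8.60 in Sel1L-deficient islets, against 8.38, 8.26 and 8.41 in wildtype islets. The genotypes overlapped, with Sel1L-deficient replicate 3 the highest. The difference of 0.08 ± 0.116 (SE, n = 3 each; limma adjusted p = 0.889) had an interval of -0.19 to 0.34, which as a ratio is 0.88 to 1.27. Without Sel1L-deficient replicate 3 the difference was -0.01. The 2 replicate 3 arrays also had the highest summed level of the 10 measured acinar markers, 8730 Sel1L-deficient and 9493 wildtype, against 2171 to 2967 and 3580 to 5350 on the others. The part of these cells in the Rbp4 values was not tested.

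Ghsr encodes the ghrelin receptor, through which ghrelin stimulates somatostatin release in mouse islets. It read 5.58, 5.59 and 5.21 in Sel1L-deficient islets, against 5.50, 5.30 and 5.20 in wildtype islets. In each genotype replicate 3 was the lowest, and the groups overlapped. The difference was 0.13 ± 0.141 (SE, n = 3 each; limma adjusted p = 0.839), with an interval of -0.19 to 0.45. It was 0.26 without Sel1L-deficient replicate 3 and 0.06 without wildtype replicate 3.

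Lepr, the leptin receptor gene, read 1.60, 1.83 and 1.46 in Sel1L-deficient islets, against 1.58, 1.69 and 2.07 in wildtype islets. All 6 values lay below the array medians. The difference was -0.15, and its interval ran between -0.51 and 0.21 (limma adjusted p = 0.835). It was 0.08 on the 4 arrays with a high Xist signal. Lepr was thus not separated from background in either genotype.

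Of the 4 receptor genes, Sstr2 and Sstr3 lay above the array medians on all 6 arrays, and Sstr1 and Sstr5 lay below them on all 6. Sstr2 encodes a receptor through which somatostatin restrains α cells in mice. It read 5.84, 6.22 and 5.81 in Sel1L-deficient islets, against 5.97, 5.49 and 5.64 in wildtype islets. The highest value was Sel1L-deficient and the 2 lowest were wildtype, with wildtype replicate 1 above 2 of the 3 Sel1L-deficient arrays. The difference of 0.25 ± 0.163 (SE, n = 3 each; limma adjusted p = 0.712) had an interval of -0.12 to 0.62. It was 0.12 without Sel1L-deficient replicate 2 and 0.39 without wildtype replicate 1.

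Sstr3 encodes a receptor that localises to primary cilia, in mouse islets among other tissues. It read 6.74, 6.53 and 6.78 in Sel1L-deficient islets, against 6.81, 6.77 and 6.76 in wildtype islets. The wildtype values were close together and the Sel1L-deficient values spread on both sides of the lowest of them. The difference of -0.09 ± 0.107 (SE, n = 3 each; limma adjusted p = 0.847) had an interval of -0.34 to 0.15, a ratio of 0.79 to 1.11. It was -0.02 without Sel1L-deficient replicate 2.

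Sstr5 encodes a receptor through which somatostatin restrains insulin secretion in mouse β cells. It was the 1 gene whose genotypes did not overlap, with 2.03, 2.04 and 2.05 in Sel1L-deficient islets, against 1.77, 1.76 and 1.81 in wildtype islets. The difference was 0.26 ± 0.0933 (SE, n = 3 each), with an interval of 0.05 to 0.47. It did not pass the threshold (limma adjusted p = 0.421; unadjusted p = 0.0227). All 6 values lay below the array medians, so the difference was not separated from background.

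Sstr1 encodes a further receptor of the family. It read 2.75, 2.86 and 2.82 in Sel1L-deficient islets, against 2.62, 2.74 and 2.77 in wildtype islets. The difference was 0.10, and its interval ran between -0.13 and 0.33 (limma adjusted p = 0.821), again below the array medians and with overlap. Sstr4, the remaining receptor gene, was added after its values had been seen. It averaged 2.50 ± 0.237 in Sel1L-deficient and 2.40 ± 0.145 in wildtype islets (SD, n = 3 each), also below the medians.

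**Figure D2:**
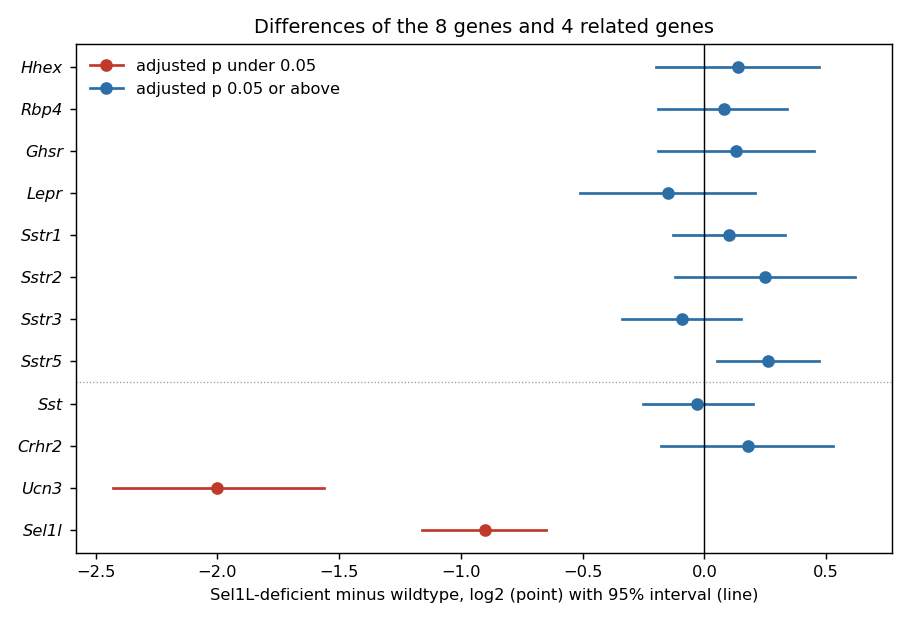
Log2 difference, Sel1L-deficient minus wildtype (points), with its 95% limma interval (lines), for the 8 genes and, under the dotted line, Sst, Crhr2, Ucn3 and Sel1l. The intervals of 7 of the 8 genes include 0, and Sstr5 has 0.05 to 0.47, while Ucn3 lies at -2.00 and Sel1l at -0.90.

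The ligand of these receptors is encoded by Sst, the defining hormone gene of delta cells. It read 12.48, 12.52 and 12.43 in Sel1L-deficient islets, against 12.58, 12.48 and 12.46 in wildtype islets. The difference of -0.03 had a 95% interval between -0.25 and 0.20 (limma adjusted p = 0.964). The highest values on the arrays were 12.8 to 13.0, and differences this near the top of the scale can be compressed. Cort, which encodes the related peptide cortistatin, averaged 2.68 ± 0.618 in Sel1L-deficient islets and 2.34 ± 0.0941 in wildtype islets (SD, n = 3 each). It was below the array medians on 5 arrays and at 3.39 on Sel1L-deficient replicate 3, without which its difference was -0.02, against 0.34 with it. In bulk islets, fewer cells of a type and less RNA per cell cannot be told apart.

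To set the genes against Sst on the same array, Sst was subtracted from each within the array. The resulting difference between genotypes ranged over the 8 genes between -0.12 for Lepr and 0.29 for Sstr5, and was -1.97 for Ucn3. These values carry the possible compression of Sst, and those of Lepr, Sstr1 and Sstr5 also their low signal. With 3 arrays against 3 an exact two-sided permutation test cannot give a p under 0.1, the value it gave for both Ucn3 and Sstr5, so it could call none of these differences.

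The transcript of the β cell ligand that acts on delta cells fell, and the peptide was not measured here. Ucn3 was 7.07, 7.05 and 7.54 in Sel1L-deficient islets, against 9.46, 8.87 and 9.32 in wildtype islets, a 3.99-fold lower value (difference -2.00 ± 0.19 SE, limma adjusted p = 0.013). The adjusted p was above 0.05 in 4 of the 6 fits with an array left out, at 0.0896 for Sel1L-deficient replicate 1, 0.0686 for Sel1L-deficient replicate 2, 0.059 for wildtype replicate 1 and 0.0731 for wildtype replicate 3, while the difference lay between -2.17 and -1.87 in all 6. Every Sel1L-deficient array lay below every wildtype array. Its receptor gene Crhr2 read 3.02, 2.72 and 2.55 in Sel1L-deficient islets, against 2.82, 2.48 and 2.47 in wildtype islets, all below the array medians (difference 0.18, interval -0.18 to 0.53; limma adjusted p = 0.794). The Crhr2 difference was 0.05 without Sel1L-deficient replicate 1 and 0.29 without wildtype replicate 1. Of the 7 urocortin and CRH system genes, 1 fell, 0 rose and 6 did not pass, with a median of -0.03. Over all genes 0.153% fell and 0.0902% rose.

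Cyclic AMP, which somatostatin receptors lower, acts on genes through the cyclic AMP response element. Its full palindrome, TGACGTCA, was searched on both strands in the RefSeq promoters of Sst and the 8 genes (assembly GRCm38.p6, 250 bases before to 50 after each start). Promoters were matched for 7 of the 9 genes, 10 in all, and the table held none for Sstr1 and Sstr5. The element was in 2 of the 10 and in 1.79% of all 32851 promoters. These shares are not a like comparison, since the Sst element was known beforehand. In Sst, the element is the classical binding site of CREB and lies 48 bases before the start. Among those of the 8 genes with a matched promoter, only Sstr2 had it, 58 bases before the start. Sstr1 and Sstr5 could not be searched. The 100 bases before each start are shown, 5′ to 3′ on the gene's strand, because they place the same element in a ligand gene and a receptor gene whose levels were measured here; capitals mark the element. The Sst stretch is chr16:23890845-23890944 (minus strand) and the Sstr2 stretch chr11:113619227-113619326 (plus strand).
Sst: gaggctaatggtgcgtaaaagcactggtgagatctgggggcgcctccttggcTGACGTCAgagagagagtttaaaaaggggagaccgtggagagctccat
Sstr2: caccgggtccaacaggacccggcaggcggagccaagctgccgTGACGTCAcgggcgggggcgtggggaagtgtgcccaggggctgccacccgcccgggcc
A match is a description of letters and not of binding. Neither gene passed the threshold, with differences of -0.03 for Sst and 0.25 for Sstr2.

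Genes of somatostatin signalling downstream of the receptors did not pass the threshold either. Of 27 measured ligand and G protein signalling genes 0 rose and 0 fell (limma), with a median of 0.03. A limma unadjusted p under 0.05 was found for 4, against 9.48% of all genes. Gnai1, an inhibitory G protein α subunit, read 7.52, 7.40 and 7.21 in Sel1L-deficient islets, against 7.21, 7.06 and 6.60 in wildtype islets (difference 0.42, interval 0.04 to 0.81; limma adjusted p = 0.475). Sel1L-deficient replicate 3 and wildtype replicate 1 lay close together, and the difference was 0.25 without wildtype replicate 3. Kcnj3, a subunit of the potassium channel that these G proteins open, averaged 4.45 ± 0.192 in Sel1L-deficient and 4.06 ± 0.0368 in wildtype islets (SD, n = 3 each; limma adjusted p = 0.366). Its mean over 2 probe sets differed by 0.14, against 0.38 on the brighter of them. Ptpn11, the phosphatase SHP2 that somatostatin receptors can engage, averaged 7.66 ± 0.127 in Sel1L-deficient and 8.07 ± 0.194 in wildtype islets (SD, n = 3 each; limma adjusted p = 0.372).

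Other genes of delta cells gave a like picture. Of 13 measured members 0 rose and 0 fell (limma), with a median of 0.02. A limma unadjusted p under 0.05 was found for 1, against 9.48% of all genes. The 1 was Pdx1, a transcription factor of β and delta cells, at 6.72, 6.56 and 6.81 in Sel1L-deficient islets, against 7.55, 7.06 and 7.47 in wildtype islets (difference -0.66, interval -1.0 to -0.32; limma adjusted p = 0.196). The β cell marker list, which also holds Pdx1, had 4 of 9 measured members that fell, namely Mafa, Ucn3, Slc2a2 and G6pc2, where 0.153% of all genes fell. With an array left out, Mafa passed in all 6 fits, while Slc2a2 lost its call in 5 and G6pc2 in 6 of them, with differences of -1.50 to -1.22 and -0.99 to -0.81. On the 4 arrays with a high Xist signal none of the 4 passed, and Mafa differed by -2.11 (limma adjusted p = 0.0527). The summed linear level of the 9 measured β cell markers was 8875 to 9200 on the Sel1L-deficient arrays and 11712 to 13493 on the wildtype arrays. The summed level of the 6 delta cell defining markers, set mainly by Sst, was 6069 to 6375 on the Sel1L-deficient arrays and 6127 to 6622 on the wildtype arrays, and overlapped. These markers are Sst, Hhex, Rbp4, Ghsr, Lepr and Sstr3, so the sum restates values given above and is no separate measure of delta cells.

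Leptin and ghrelin signalling genes had 0 of 18 past the threshold (limma), with a median of 0.05. A limma unadjusted p under 0.05 was found for 2, against 9.48% of all genes. Jak2, the kinase bound by the leptin receptor, read 7.84, 7.77 and 7.88 in Sel1L-deficient islets, against 7.59, 7.40 and 7.48 in wildtype islets. The difference was 0.34 (interval 0.10 to 0.57; limma adjusted p = 0.347). Jak2 was named because its groups did not overlap. In this list 2 of 18 did not, 11.1% against 15.1% of all genes. Plcb4, a phospholipase C of the Gq pathway that the ghrelin receptor uses, differed by 0.30 (interval 0.07 to 0.53; limma adjusted p = 0.385). Ghrl, the ghrelin gene of ε cells, read 6.90, 6.20 and 7.19 in Sel1L-deficient islets, against 6.46, 6.80 and 6.26 in wildtype islets, and overlapped. Its difference of 0.26 had an interval of -0.31 to 0.83 and was -0.08 on the 4 arrays with a high Xist signal.

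Genes related to Rbp4 were mostly dim. Of 9 measured retinol carriers and binding proteins 0 passed (limma), and the median was -0.04. A limma unadjusted p under 0.05 was found for 1, against 9.48% of all genes. The 1 was Crabp2, a cellular retinoic acid-binding protein, with 3.13 ± 0.165 in Sel1L-deficient and 2.84 ± 0.124 in wildtype islets (SD, n = 3 each; limma adjusted p = 0.501). Among 7 measured islet hormone genes 0 passed (limma; 1 at an unadjusted p under 0.05, Ins2, against 9.48% of all genes). Ins2 averaged 10.6 ± 0.213 in Sel1L-deficient and 11.1 ± 0.103 in wildtype islets, Pyy 12.43 ± 0.142 and 12.18 ± 0.0308, and Iapp 11.64 ± 0.0216 and 11.73 ± 0.0791 in the same order (SD, n = 3 each). Over the 77 measured genes of all these lists 1 fell and 0 rose, where 0.153% of all genes fell and 0.0902% rose. The values of 14 did not overlap, which is 18.2% against 15.1% of all genes.

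**Figure D3:**
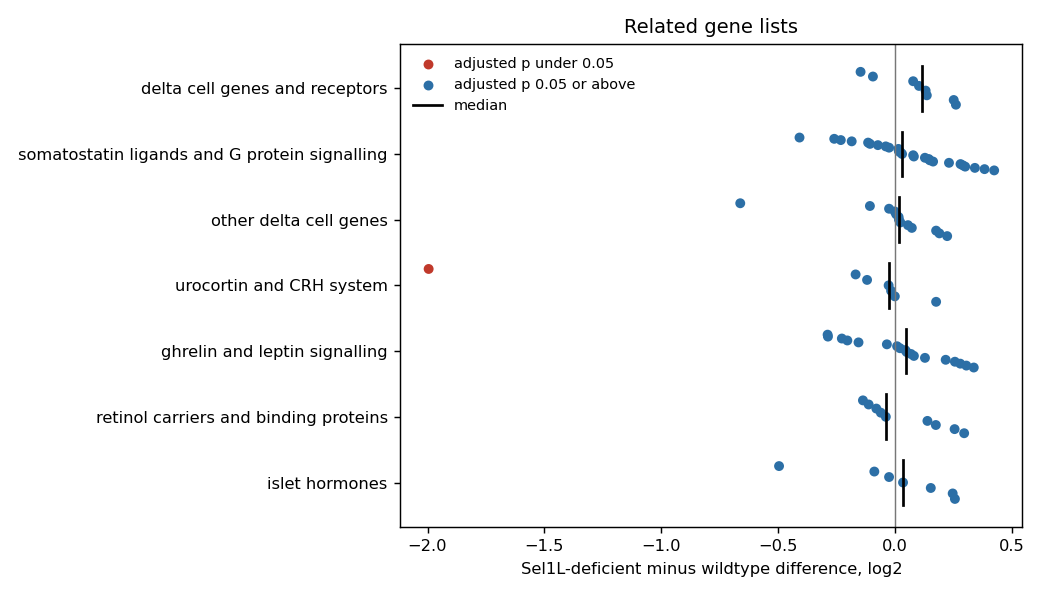
Log2 difference, Sel1L-deficient minus wildtype, of each measured gene (points) in the 8 genes and in 6 lists around them, with list medians as vertical lines. Ucn3 at -2.00 is the only point past the threshold, and the medians lie between -0.04 and 0.12.

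The other cell types of the islet were followed with 9 marker lists. Over all genes, 50.1% were higher in Sel1L-deficient islets and 9.48% had an unadjusted p under 0.05 (limma). α cell markers were higher in all 6 measured members, with 0 past the threshold (limma; 2 at an unadjusted p under 0.05), and a median of 0.22. The summed linear level of the α cell markers was 10574 to 11015 on the Sel1L-deficient arrays and 9940 to 10267 on the wildtype arrays. The differences of these markers ran between 0.03 for Gcg, the glucagon gene, and 0.66 for Ldb2, with 0.56 for Irx1. Among endothelial markers Tie1, Kdr and Eng differed by 0.58, 0.55 and 0.51, and among mesenchymal markers Dcn, Lum and Sparc by 0.67, 0.47 and 0.45. The mesenchymal median was 0.45 and its lowest difference was -0.07, for Tagln, with 0 of 15 mesenchymal markers past the threshold (limma; 5 at an unadjusted p under 0.05). Without Sel1L-deficient replicate 3 Dcn differed by 0.44. The mesenchymal sum was 1022 to 1518 on the Sel1L-deficient arrays and 679 to 1149 on the wildtype arrays. Leukocyte markers had a median of -0.18 and acinar markers of -0.64, duct markers of -0.09 and Schwann cell markers of 0.05, with 0 members past the threshold in each (limma; 1 leukocyte marker and 0 of the others at an unadjusted p under 0.05). Markers that lay below the array medians on all 6 arrays were 4 of 13 for leukocytes (Adgre1, Itgam, Cd52 and Laptm5), 2 of 6 for Schwann cells (S100b and Gfap), 2 of 10 for acinar cells (Ptf1a and Rbpjl), 1 of 15 for mesenchymal cells (Lum) and 1 of 10 for duct cells (Cftr). The part of these cells in the 8 genes' values was not tested.

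**Figure D4:**
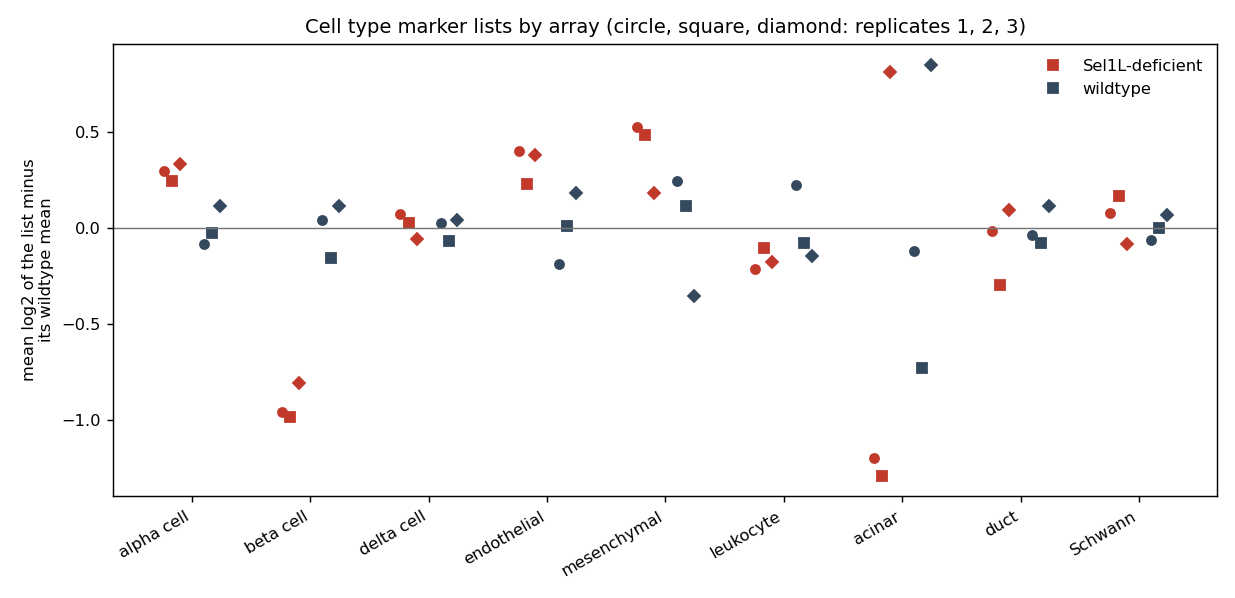
Mean log2 value of each cell type marker list on each array, less the list's wildtype mean, for Sel1L-deficient arrays (left of each pair) and wildtype arrays (right). Delta cell markers overlap between the genotypes. On all 3 Sel1L-deficient arrays β cell markers are lower, and α cell and endothelial markers higher, than on every wildtype array. Acinar markers are highest on replicate 3 of both genotypes. The delta cell list holds Sst, Hhex, Rbp4, Ghsr, Lepr and Sstr3, whose values are given above.

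The profiles most like those of the 5 genes above the median of all genes were found by the root mean square difference of centred values over the 6 arrays, among 17718 named genes. Hhex was nearest to Mbtps2 (0.0384) and Rslcan18 (0.0422), Rbp4 to Fam110c (0.0214) and Stard10 (0.0229), and Ghsr to Nfasc (0.0245) and Ccdc90b (0.0302). Sstr2 was nearest to Fam81a (0.0602) and Ptms (0.0642), and Sstr3 to Prss45 (0.0129) and Slc15a1 (0.014). Of these, Rslcan18, Fam110c, Prss45 and Slc15a1 lay below the array medians on all 6 arrays and were not separated from background. No gene of the delta cell or somatostatin lists was among them, which says little when only 2 genes per profile were taken from 17718. The 5 genes' own spread by the same measure was 0.0914 to 0.23, so these likenesses describe small deviations on 6 arrays.

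**Figure D5:**
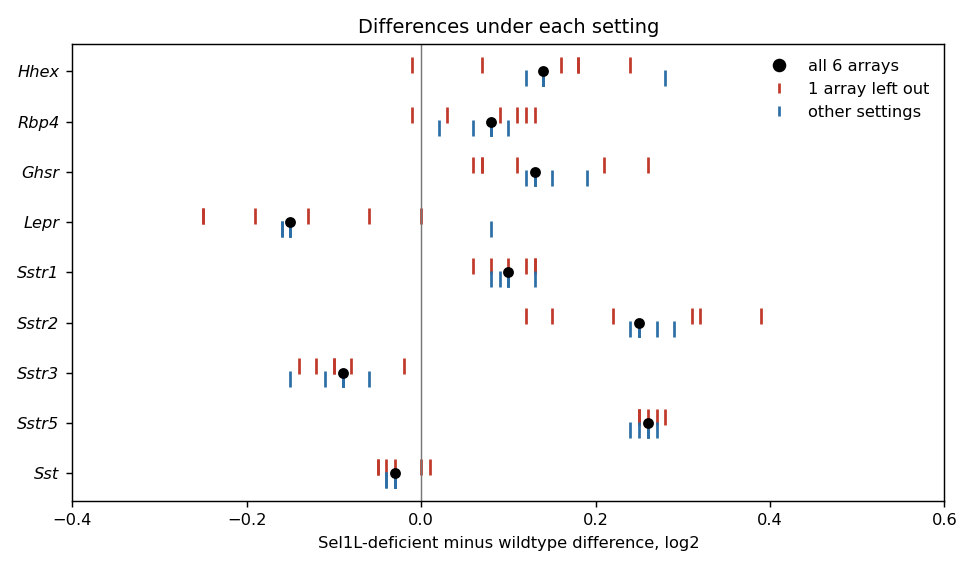
Log2 difference, Sel1L-deficient minus wildtype, of the 8 genes and Sst with all 6 arrays (black points), with 1 array left out (upper ticks) and under 8 other settings (lower ticks; 7 for Lepr, Sstr1 and Sstr5, which are not among the brighter genes). Sstr5 stays between 0.24 and 0.28, while Hhex, Rbp4, Lepr and Sst have at least 1 tick on the other side of 0.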

How the data were processed

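Per the submitters' processing notes, the authors summarised the arrays with RMA. The deposited values were taken as log2 values because they lay between 0.526 and 13.0. The version, filters and build are not given in the sources used here. RMA can compress large differences. Of 41345 probe sets, 23521 had 1 gene symbol in the platform's annotation, 1814 had several and 16010 were unnamed here. The brightest probe set stood for each of the 22180 genes.

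The test was limma's moderated linear model (version 3.58.1, run under R 4.3.3, eBayes, two-sided), fitted to all 6 arrays. The fit was tested on simulated data with known log2 differences of 0.5, 1 and 2. It recovered 10.4%, 69.3% and 97.3% of them, with 3.98% false calls, so differences of 0.5 or less would mostly be missed. The number of changed genes was set in the simulation, so these rates need not hold for the measured data. Marker sums add 2 raised to each log2 value. No set test was run. Named genes were the 8 members, Sst, Cort, Ucn3, Crhr2, Ghrl and Sel1l, the called members of each list (up to 4) or otherwise up to 3 with the largest differences among those without overlap, and the 2 nearest profiles. Members and lists were chosen with earlier results of these data known. Of 83 related genes listed, 77 were measured and the others were not analysed here. Alternatives covered probe sets, dim genes, scaling, the variance prior, the replicate number, sex-linked transcripts and each array left out.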

Additional observations from a re-analysis of the deposited data

How the results depend on the processing

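Under 13 alternatives 0 of the 8 genes passed the threshold, with a median difference of 0.09 to 0.17. Among the brighter genes alone, which hold 5 of the 8, 0 passed and the median was 0.13. Over all genes 54 passed, but 4 to 29 with 1 array left out, 1 on the 4 arrays with high Xist and 133 with a trended, robust prior. Of the related genes 1 passed, Ucn3, or 0 to 1 with 1 array left out and 0 on those 4 arrays, where its difference was -2.10 (limma adjusted p = 0.112). On the same arrays the sign turned for Lepr (0.08), Ghrl (-0.08) and Sstr4 (-0.07). With 1 array left out it turned for Hhex (-0.01 to 0.24), Rbp4 (-0.01 to 0.13), Cort (-0.02 to 0.53), Sstr4 (-0.02 to 0.22) and Sst (-0.05 to 0.01). Fewer arrays were fitted in these cases, and the cause was not tested further. Sel1l lost its call with each array left out (limma adjusted p = 0.0829 to 0.14) and on the 4 arrays with high Xist (0.196), with differences of -0.97 to -0.82. Ldb2 passed among the brighter genes alone (0.0268).

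The replicate number was not taken as a pairing in the main fit. Deviations of same-numbered arrays correlated by 0.105, 0.072 and 0.21, and those of other pairs by -0.133 to 0.0408. Each array thus correlated best with its own number, and whether same-numbered arrays were matched was not tested. With the replicate block 36 genes passed, 0 of the 8 among them, the members' median was 0.12, and Sel1l had an adjusted p of 0.0559. With 3 arrays per genotype, Lepr, Sstr1 and Sstr5 below the array medians limit what these data can show.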
